A study of Mus musculus with 2 samples.

Results

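*Krt7*, *Krt8*, *Krt18* and *Krt19*, the keratin genes of simple epithelia, and *Epcam*, which encodes an epithelial cell adhesion molecule, were followed by name through the single-cell RNA counts of the ocular area of mouse embryos. They are 5 of the 27998 genes in the tables of both libraries. Cells were sorted into classes by marker genes that did not include the 5, and the genes were then counted in each class, inside and outside the ectoderm, and in the *Mab21l1*-null (KO) against the wild-type (WT) library.

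Keratins build the intermediate filaments of epithelial cells, and a filament forms only when a type I keratin (*Krt18* and *Krt19* here) joins a type II keratin (*Krt7* and *Krt8* here). *Krt8* and *Krt18* encode the first such partners made in the embryo and are widely used to mark simple epithelia and the early surface ectoderm, from which the lens placode thickens next to the optic vesicle. EPCAM is a membrane glycoprotein of epithelial cells that associates with claudins and is cut at the cell surface by proteases.

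Both libraries came from C57BL/6J embryos at the 26-somite stage (E9.25), 1 wild-type embryo and 1 *Mab21l1*-null embryo, with both optic areas of the embryo dissected by hand and dissociated with trypsin. The authors counted transcripts by unique molecular identifier (UMI) with the 10x Chromium 3′ chemistry, in which a transcript is counted once whatever its length. Levels of different genes are set side by side here as UMI counts. Differences between genes in capture or mapping were not checked. After filtering, 1680 cells of the WT library (median 21037 UMIs) and 2404 cells of the KO library (median 18135 UMIs) were kept. *Mab21l1* RNA was present in both libraries, at 20.3 UMIs per 1000000 UMIs (CPM) in WT and 32.5 CPM in KO over all cells. It was lower in KO in ectoderm-like cells, at 64.8 CPM [49.3, 83.6] in WT and 39.1 CPM [25.3, 57.7] in KO, and in those of the lens placode, at 89.4 CPM [67.7, 116] and 56.7 CPM [36.7, 83.8], with overlapping intervals. WT and KO are used as the labels give them. The libraries shared 15 barcode sequences. With 1 embryo per genotype there was no replicate and no test. Brackets give exact 95% intervals (Poisson for a level, Clopper-Pearson for a share of cells, conditional binomial for a ratio), and all cover counting error only.

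A cell was given to 1 of 9 classes when at least 3 of the 8 markers of that class had a UMI and no other class had as many. The ectoderm-like class held 46 WT cells, 2.74% [2.01, 3.64] of the library, and 36 KO cells, 1.498% [1.05, 2.07]. All 8 ectoderm gate markers, *Cdh1*, *Esrp1*, *Grhl2* and *Trp63* among them, were found in these cells in both libraries, which follows in part from the gate. Of 10 further ectoderm genes not used for the gate 9 were found in WT and 10 in KO, summing to 273 and 329.9 CPM. All 10 were also found in optic vesicle-like cells of both libraries, at 53.4 and 44.1 CPM, and neural crest-like cells had 104 and 71.8 CPM. Their presence alone thus does not set the ectoderm-like cells apart, while their summed level was highest there. The 8 endoderm and notochord markers, *Foxa2*, *Sox17*, *T* and *Shh* among them, were all at 0 in the ectoderm-like cells of both libraries. Mesenchyme markers summed to 102 CPM in WT and 95.4 CPM in KO ectoderm-like cells, and optic vesicle markers to 57.1 and 150.1 CPM; the part of those cells in the results was not tested. Ties between classes, 153 WT and 214 KO cells, and cells under 3 markers of every class, 94 and 120 cells, were left out of the classes. At the edge of the gate, 8 WT and 5 KO ectoderm-like cells had exactly 3 markers, while 7 and 8 cells had 2.

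*Krt7*, *Krt8* and *Krt18* lie on mouse chromosome 15 and *Krt19* and *Epcam* on chromosomes 11 and 17. In the GENCODE annotation of GRCm38, *Krt8* (ENSMUSG00000049382) spans 101996698 to 102004482 on the minus strand, and *Krt18* (ENSMUSG00000023043) spans 102028180 to 102032027 on the plus strand. The start sites of *Krt8* and *Krt18* face away from each other across 23697 bases with no annotated gene between. *Krt7* (ENSMUSG00000023039) lies at 101411043 to 101430313 on the plus strand, *Krt19* (ENSMUSG00000020911) on chromosome 11 at 100140810 to 100148665 on the minus strand, and *Epcam* (ENSMUSG00000045394) on chromosome 17 at 87635979 to 87651129 on the plus strand. Exons of *Krt7* and *Krt8* overlap exons of *Gm671* and *Gm36026* on the opposite strand, and whether the counting used the strand is not given in the sources used here.

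RefSeq promoters (GRCm38.p6) were matched for 4 of the 5 genes, all but *Krt19*. The bases before each start are shown because the genes were all highest in the ectoderm-like cells, as the levels given after them show, while *Krt18* alone was also high in pigment cells. Capitals mark CACCTG or its complement CAGGTG, the E-box letters that the repressors ZEB1, ZEB2 and SNAI2 can bind; these letters were chosen after the sequences were seen. The 250 bases before the RefSeq start were searched, and bases that GENCODE places in an untranslated part of a first exon are not shown (1 of *Krt7*, 140 of *Krt8*, 36 of *Krt18* and 0 of *Epcam*). The *Krt7* stretch lies before the RefSeq start but inside the gene as GENCODE spans it, from 101411043 on. The stretches are chr15:101412153-101412401 (plus strand) for *Krt7*, chr15:102004483-102004592 (minus strand) for *Krt8*, chr15:102027966-102028179 (plus strand) for *Krt18* and chr17:87635729-87635978 (plus strand) for *Epcam*.
Krt7: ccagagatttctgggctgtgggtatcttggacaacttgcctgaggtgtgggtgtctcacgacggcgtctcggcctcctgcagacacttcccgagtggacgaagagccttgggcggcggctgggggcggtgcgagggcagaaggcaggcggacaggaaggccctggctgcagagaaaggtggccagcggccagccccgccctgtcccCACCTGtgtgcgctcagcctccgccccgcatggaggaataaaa
Krt8: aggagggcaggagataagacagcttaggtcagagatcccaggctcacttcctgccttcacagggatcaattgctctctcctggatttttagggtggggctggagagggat
Krt18: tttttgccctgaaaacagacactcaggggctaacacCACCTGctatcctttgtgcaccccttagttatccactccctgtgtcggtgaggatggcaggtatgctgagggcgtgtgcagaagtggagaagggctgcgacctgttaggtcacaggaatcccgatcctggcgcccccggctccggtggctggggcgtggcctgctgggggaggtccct
Epcam: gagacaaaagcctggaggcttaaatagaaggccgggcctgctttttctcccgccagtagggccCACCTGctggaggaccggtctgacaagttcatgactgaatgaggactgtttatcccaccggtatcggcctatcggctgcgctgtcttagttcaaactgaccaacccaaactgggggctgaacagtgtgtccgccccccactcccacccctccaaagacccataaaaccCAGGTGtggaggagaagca

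Within the 250 bases, CACCTG on either strand occurred once in the *Krt7*, *Krt8* and *Krt18* stretches, at 44, 111 and 214 bases before the start, and at 187 and 19 bases before the start of *Epcam*. That of *Krt8* lies in the first exon of the GENCODE transcript and so outside the bases shown. Of 32851 promoters searched over the same 250 bases, 17.2% held it at least once and 2.06% at least 2 times. The GC box GGGCGG (either strand, 32.7% of promoters) occurred 4 times in *Krt7*, once in *Epcam* and in neither *Krt8* nor *Krt18*. The AP-2 letters GCCNNNGGC (13.7%) occurred 2 times in *Krt7*, one overlapping a GC box, and once in *Krt18*. The grainyhead letters AACNNGTT (3.64%) and the E-box CACGTG (6.02%), which MITF can bind, were in none of the 4 stretches. Such matches are letters only.

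Of the type II genes, *Krt8* had 275 UMIs in the 46 WT ectoderm-like cells and 177 UMIs in the 36 KO cells, levels of 302 CPM [267, 340] and 277 CPM [237, 321]. *Krt7*, a keratin of simple and ductal epithelia, had 191 and 130 UMIs, or 209.8 CPM [181, 242] and 203 CPM [170, 241]. *Krt8* thus exceeded *Krt7* over the pooled ectoderm-like cells of both libraries, with a *Krt7* to *Krt8* UMI ratio of 0.695 [0.574, 0.838] in WT and 0.734 [0.581, 0.926] in KO. *Krt18* was the highest of the 5 in both libraries, with 409 UMIs or 449 CPM [407, 495] in WT and 297 UMIs or 464 CPM [413, 520] in KO. In KO its interval overlapped that of *Epcam*. *Krt19*, a type I keratin of ducts and bipotential epithelia, was the lowest, with 12 UMIs in WT (13.2 CPM [6.81, 23.0]) and 16 UMIs in KO (25.02 CPM [14.3, 40.6]). *Epcam* had 328 and 270 UMIs, or 360.2 CPM [322, 401] and 422 CPM [373, 476].

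**Figure D1:**
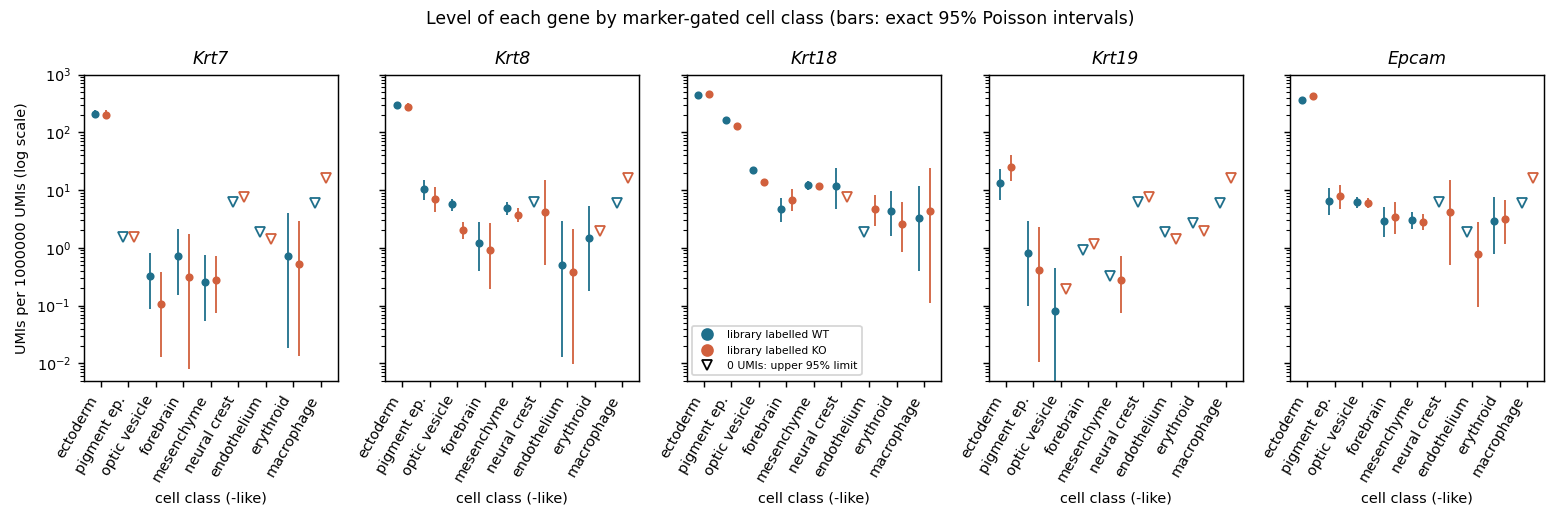
Levels of the 5 genes (UMIs per 1000000 UMIs, log axis) in the 9 cell classes of the library labelled WT (blue) and the library labelled KO (orange); bars are exact 95% Poisson intervals and open triangles the upper limit where no UMI was counted. Every gene was highest in the ectoderm-like class, and *Krt18* had a next highest level of 164 and 131 CPM in the pigment epithelium-like class.

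Nearly every ectoderm-like cell carried the transcripts. *Krt8* and *Krt18* each had a UMI in 46 of 46 WT cells and 36 of 36 KO cells, *Epcam* in 45 and 35 cells and *Krt7* in 42 and 33 cells, while *Krt19* had a UMI in 7 WT cells (15.2% [6.34, 28.9]) and 9 KO cells (25% [12.1, 42.2]). With each cell thinned to 10000 UMIs, which left out 4 WT cells and 1 KO cell as too shallow, the shares were 95.2% and 91.4% for *Krt8*, 95.2% and 100% for *Krt18*, 97.6% and 91.4% for *Epcam*, 71.4% and 80.0% for *Krt7* and 16.7% and 22.9% for *Krt19*. In endothelium-like cells, which should lack these genes, *Krt8* had a UMI in 1 of 67 WT cells and 1 of 104 KO cells and *Krt18* in 0 and 5 cells, at a median depth of 25402 and 20821 UMIs per cell against 18669 and 16226 in ectoderm-like cells. Erythroid-like cells had a *Krt8* UMI in 2 of 38 WT and 0 of 52 KO cells and a *Krt18* UMI in 5 and 2 cells, at a median depth of 34642 and 33622 UMIs. In macrophage-like cells *Krt18* was found in 2 of 17 and 1 of 8 cells. An ectoderm-like cell held a median of 8.5 *Krt18* UMIs in WT and 7 in KO, from 2 to 21 and from 1 to 29, and a median of 5 *Krt8* UMIs in both libraries, from 1 to 23 and from 1 to 19. The variance of the UMIs per cell was 2.62 and 3.22 times the mean for *Krt18*, 2.90 and 2.32 times for *Krt8* and 4.12 and 3.20 times for *Epcam*. *Krt7*, *Krt8*, *Krt18* and *Epcam* were found together in 41 WT cells (89.1%) and 32 KO cells (88.9%), and all 5 in 7 and 9 cells.

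Within the ectoderm, cells with a UMI of at least 2 of the lens placode markers *Pax6*, *Six3*, *Sox2* and *Foxe3* were called lens placode (LP)-like, 29 in WT and 23 in KO, and the other 17 and 13 surface ectoderm (SE)-like. *Foxe3* had 0 UMIs in the ectoderm-like cells of both libraries, so the cut was in effect 2 of the 3 other markers. The placode markers are not particular to the ectoderm. They summed to 462 CPM in WT and 422 CPM in KO ectoderm-like cells, against 569 and 552 CPM in optic vesicle-like cells. What part optic vesicle RNA has in the LP-like call was not tested. *Epcam* was higher in LP-like than in SE-like cells, at 408 CPM [360, 461] against 249 CPM [193, 316] in WT, a ratio of 1.64 [1.25, 2.17], and at 486 CPM [423, 555] against 282 CPM [213, 366] in KO, a ratio of 1.73 [1.28, 2.36]. *Krt7* went the other way, at 152 CPM [123, 186] in LP-like against 344 CPM [278, 421] in SE-like WT cells, a ratio of 0.442 [0.329, 0.593], and at 161 against 297 CPM in KO, a ratio of 0.543 [0.379, 0.781]. The *Krt8* ratio was 0.738 [0.574, 0.953] in WT and 1.06 [0.760, 1.49] in KO, and the *Krt18* ratio 0.823 [0.669, 1.02] and 0.990 [0.771, 1.28]. *Krt19* had 2 UMIs in LP-like against 10 in SE-like WT cells, a ratio of 0.0857 [0.00913, 0.402], and 6 against 10 UMIs in KO, a ratio of 0.271 [0.0809, 0.823]. Of the 4 genes with at least 20 UMIs, 1 (*Epcam*) was 1.5-fold or more higher in LP-like cells in each library, where 17.0% of 5512 genes were in WT and 13.7% of 4332 genes in KO. Another (*Krt7*) was 1.5-fold or more lower, beside 12.4% and 13.8% of those genes. These ratios depended on the placode cut. With at least 3 markers required, which then means all those detected, the *Epcam* ratio fell to 1.14 and 1.11, and with at least 1 the *Krt19* ratio turned to 1.08 in WT.

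In single LP-like cells the *Krt7* level per 10000 UMIs had a median of 1.003 in WT and 1.58 in KO, against 3.42 and 2.99 in SE-like cells. The lowest and highest WT values were 0 and 5.11 in LP-like and 1.18 and 11.7 in SE-like cells, so the cells of the LP-like and SE-like sets overlapped. *Krt7* had a UMI in every SE-like cell of both libraries (17 and 13) and in 25 of 29 and 20 of 23 LP-like cells. The *Krt7* to *Krt8* UMI ratio was 0.557 in WT and 0.573 in KO LP-like cells. In SE-like cells it was 0.931 [0.695, 1.24] and 1.11 [0.755, 1.64], so *Krt8* did not clearly exceed *Krt7* there. In KO LP-like cells *Epcam* had 214 UMIs and *Krt18* 204. *Epcam* per 10000 UMIs had a median of 4.13 and 4.26 in LP-like and 2.10 and 2.94 in SE-like cells, again with overlapping ranges.

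Outside the ectoderm the 5 genes parted. Of the 9 classes the ectoderm-like class was highest for all 5 genes in both libraries, where 18.2% of genes with at least 20 UMIs were highest in that class in WT and 18.6% in KO. *Krt19*, with 17 UMIs in the whole WT library, was under that threshold in WT. The study used *Krt8* and *Krt18* among the markers that named its ectoderm cluster in these same libraries. The rank of *Krt8* and *Krt18* was thus known beforehand and is not an independent result. Against the 8 other classes summed, the ectoderm-like level was 667-fold higher [364, 1358] for *Krt7* in WT and 1122-fold [553, 2654] in KO, and 154-fold [41.4, 848] and 221-fold [77.3, 771] for *Krt19*. The fold was 66.4 [54.4, 81.2] and 107 [84.2, 137] for *Krt8* and 88.0 [72.1, 108] and 96.1 [79.6, 116] for *Epcam*. It was 18.4 [16.3, 20.8] and 26.3 [22.9, 30.1] for *Krt18*, the lowest of the 5 in both libraries. These folds leave out ties and cells without a class. The 8 other classes held 11 *Krt7* UMIs in WT and 8 in KO. Ties held 7 and 10, and cells without a class 8 and 7. Of the *Krt18* UMIs, ties held 13.6% in WT and 18.1% in KO. With cells classed by the highest scaled marker expression, the KO folds were 59.4 for *Krt8*, 58.9 for *Epcam*, 91.6 for *Krt19* and 13.0 for *Krt18*, and the WT fold of *Krt19* was 89.3. The ectoderm-like cells held 2.17% of all UMIs in WT and 1.22% in KO, and of the UMIs of each gene they held 88.0% and 83.9% for *Krt7*, 53.2% and 51.3% for *Krt8*, 56.4% and 48.2% for *Epcam* and 26.3% and 21.7% for *Krt18*.

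*Krt18* had its next highest level in pigment epithelium-like cells, the class gated on *Mitf*, *Pmel*, *Dct*, *Tyrp1*, *Trpm1*, *Tyr*, *Slc45a2* and *Mlana*. In this class 58 of 87 WT and 61 of 104 KO cells led by only 1 marker, and a lead of 2 left 29 and 43 cells. Optic vesicle gate markers summed to 608 and 495 CPM in it, against 1058 and 1096 CPM in optic vesicle-like cells. *Krt18* had 399 UMIs in the 87 WT cells, 164 CPM [148, 181], and 315 UMIs in the 104 KO cells, 131 CPM [117, 146]. These levels were 7.25-fold [6.21, 8.47] and 9.54-fold [8.07, 11.3] those of optic vesicle-like cells, and the ectoderm-like level was in turn 2.74-fold [2.38, 3.16] and 3.56-fold [3.02, 4.18] higher. *Krt18* had a UMI in 71 of the WT cells (81.6% [71.9, 89.1]) and 63 of the KO cells (60.6% [50.5, 70.0]), and after thinning in 65.9% and 48.8%. Of the WT cells 47 and of the KO cells 39 held 3 or more *Krt18* UMIs, and the highest cell of each library held 22. The ectoderm gate markers were nearly absent there, with 7 UMIs over 4 of the 8 genes in each library (2.87 and 2.90 CPM, against 773 and 916 CPM in ectoderm-like cells), and endoderm and notochord markers had 0 and 1 UMI. Of the 10 ectoderm genes outside the gate, 7 were found in each library and summed to 60.8 and 58.0 CPM, against 273 and 329.9 CPM in ectoderm-like cells, and their part in the *Krt18* level was not tested.

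The other 4 genes did not share this level. *Krt8* had 25 UMIs or 10.3 CPM [6.64, 15.2] in WT and 17 UMIs or 7.05 CPM [4.11, 11.3] in KO pigment epithelium-like cells, and *Epcam* 6.57 CPM [3.75, 10.7] and 7.88 CPM [4.74, 12.3]. *Krt7* had 0 UMIs in both libraries, up to 1.51 and 1.53 CPM at the upper limit, and its ectoderm-like level was at least 170-fold and 163-fold higher against 3 counts in the pigment class. *Krt19* had 2 UMIs and 1 UMI. The *Krt18* to *Krt8* UMI ratio was therefore 15.96 [10.7, 24.96] in WT and 18.5 [11.4, 32.2] in KO pigment epithelium-like cells, against 1.49 [1.27, 1.74] and 1.68 [1.39, 2.03] in ectoderm-like cells. The intervals of the classes did not overlap in either library.

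The summed UMIs of the type I genes *Krt18* and *Krt19* and of the type II genes *Krt7* and *Krt8* were near balance in the ectoderm-like cells. They were 421 against 466 UMIs in WT (ratio 0.903 [0.790, 1.03]) and 313 against 307 in KO (1.02 [0.868, 1.20]). In SE-like cells alone the ratio was 0.769 [0.618, 0.957] in WT and 0.920 [0.697, 1.21] in KO. Other keratin genes were not in these sums. Among them *Krt10* had 29 and 23 UMIs in ectoderm-like cells and 36.5 and 40.6 CPM in pigment epithelium-like cells, and *Krt1* had 4.52 and 4.97 CPM in the latter. In pigment epithelium-like cells the same ratio was 16.04 [10.7, 25.1] and 18.6 [11.4, 32.3]. *Krt18* made up 33.7% and 33.4% of the UMIs of the 5 genes in ectoderm-like cells, 90.3% and 89.5% in pigment epithelium-like cells, 65.0% and 62.9% in optic vesicle-like cells and 59.7% and 61.9% in mesenchyme-like cells. *Krt7* made up 15.7% and 14.6% in the ectoderm-like class, and at most 1.49% in the 3 others.

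**Figure D2:**
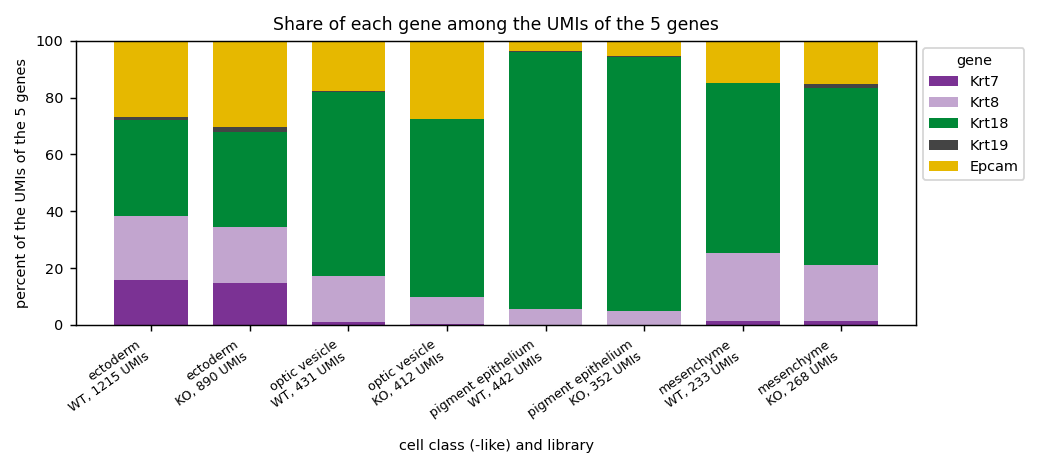
Share of each gene among the UMIs of the 5 genes (percent, bars stacked to 100%) in the ectoderm-like, optic vesicle-like, pigment epithelium-like and mesenchyme-like cells of each library, with the summed UMIs under each bar. *Krt18* (green) fills 90.3% and 89.5% of the pigment epithelium-like bars, and *Krt7* (purple) is visible in the ectoderm-like bars at 15.7% and 14.6%.

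The 2 keratins could also be followed cell by cell. *Krt8* and *Krt18* were found together in 100% of ectoderm-like cells of both libraries. In pigment epithelium-like cells, *Krt18* was found without *Krt8* in 52 of 87 WT cells (59.8% [48.7, 70.1]) and 52 of 104 KO cells (95% interval 40.03% to 59.97%), and *Krt8* without *Krt18* in 0 and 3 cells. Neither was found in 16 and 38 cells. At a matched depth of 10000 UMIs *Krt18* without *Krt8* was found in 57.6% and 43.0% of pigment epithelium-like cells, against 4.76% and 8.57% of ectoderm-like cells.

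**Figure D3:**
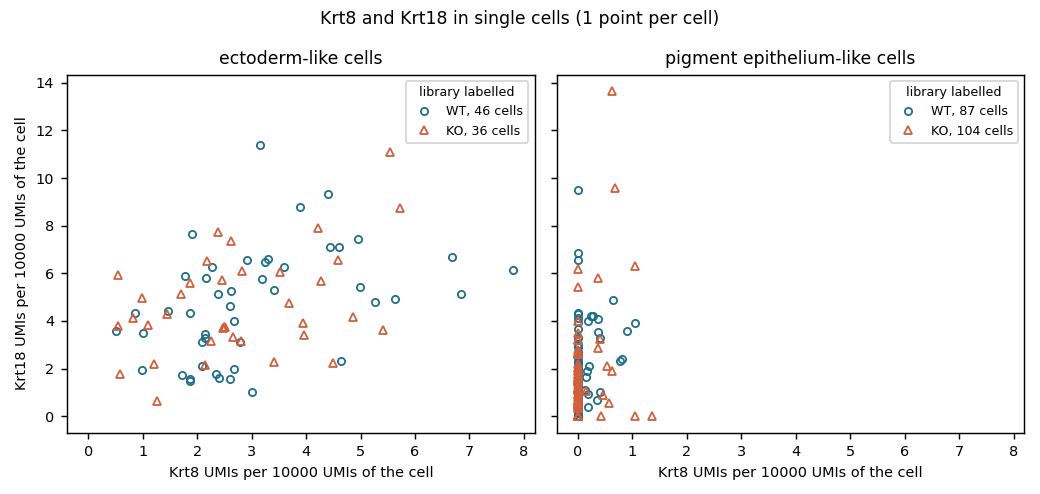
*Krt8* (horizontal) against *Krt18* (vertical), both as UMIs per 10000 UMIs of the cell, with 1 point for each ectoderm-like cell (46 WT, 36 KO) and each pigment epithelium-like cell (87 WT, 104 KO). The pigment cells lie along the vertical axis, at *Krt8* levels of 0 to 1.04 in WT and 0 to 1.37 in KO, while all ectoderm-like cells lie away from both axes.

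*Krt18* also went with the number of pigment markers among neural cells, taken as the optic vesicle-like, pigment epithelium-like and forebrain-like cells and ties among these. Cells with none of the 8 pigment markers had 7.33 CPM [4.48, 11.3] of *Krt18* in WT and 6.45 CPM [4.56, 8.85] in KO. With 1 and 2 markers the level was 7.73 and 12.6 CPM in WT and 7.41 and 12.1 CPM in KO. It was 37.3 and 19.1 CPM with 3 markers and 78.5 and 79.6 CPM with 4. With 5 or more markers it reached 149 CPM [130, 169] in 35 WT cells and 151 CPM [128, 176] in 33 KO cells. *Epcam* stayed between 4.25 and 9.90 CPM in WT and between 4.08 and 7.68 CPM in KO over the same bins. *Krt8* was also higher with more markers, at lower levels. With 0, 2, 3, 4 and 5 or more markers it had 0.733, 1.47, 4.90, 6.60 and 9.28 CPM in WT. The WT bin of 1 marker had 8.52 CPM, from 43 UMIs in 10 cells, and 1 optic vesicle-like WT cell held 31 *Krt8* UMIs. In KO the level was 1.70, 1.10, 1.87, 2.04, 4.90 and 5.76 CPM from 0 to 5 or more markers. The number of markers found in a cell also depends on its depth. With cells and markers both thinned to 10000 UMIs, *Krt18* ran from 10.0 CPM without a marker to 123 CPM with 4 markers in WT and from 6.62 to 128 CPM in KO, and with 5 or more markers to 417 CPM in 6 WT cells and 218 CPM in 11 KO cells. Thinned *Krt8* counts were few, at 1.16 CPM without a marker and 4.62 CPM with 4 in WT and 0.855 and 7.41 CPM in KO. With 5 or more markers *Krt8* had 1 UMI in WT and 0 UMIs in KO.

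**Figure D4:**
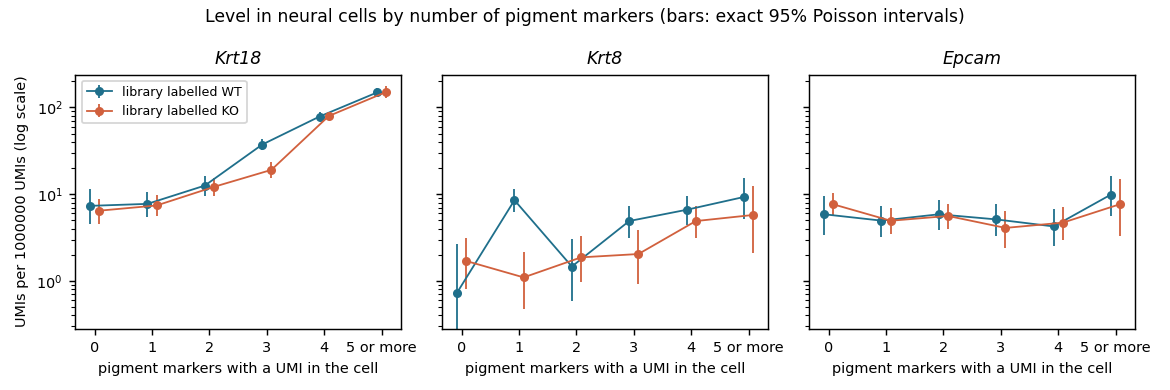
Levels of *Krt18*, *Krt8* and *Epcam* (UMIs per 1000000 UMIs, log axis) in neural cells by the number of pigment markers with a UMI in the cell, for the library labelled WT (blue) and the library labelled KO (orange), with exact 95% Poisson intervals. *Krt18* goes from 7.33 to 149 CPM in WT and from 6.45 to 151 CPM in KO, and the *Epcam* points stay between 4.08 and 9.90 CPM.

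Low counts were present in optic vesicle-like cells (440 WT, 757 KO), the class of *Rax*, *Lhx2* and *Six6*. *Krt18* had 22.6 CPM [20.03, 25.4] in WT and 13.7 CPM [12.1, 15.5] in KO, with a UMI in 25.7% and 18.5% of cells, and after thinning in 15.6% and 8.72%. *Epcam* had 6.13 CPM [4.83, 7.68] and 5.97 CPM [4.92, 7.18], with a UMI in 13.2% and 11.5% of cells. In endothelium-like cells *Epcam* had 0 and 2 UMIs, and in erythroid-like cells 4 and 6 UMIs (2.92 CPM [0.796, 7.48] and 3.15 CPM [1.16, 6.86]). *Krt8* in optic vesicle-like cells had 70 UMIs in WT (5.65 CPM [4.40, 7.14]) and 38 UMIs in KO (2.01 CPM [1.42, 2.76]), and 43 of the 70 WT UMIs lay in 5 cells, 31 of them in 1 cell. Without the optic vesicle-like cells that had an ectoderm marker, the levels in WT were 22.0 CPM for *Krt18*, 5.81 CPM for *Epcam* and 5.40 CPM for *Krt8*. In cells with neither an ectoderm nor a pigment marker (93 WT, 236 KO) *Krt18* had 10.8 CPM [6.43, 17.1] and 5.58 CPM [3.61, 8.24].

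Mesenchyme-like cells (559 WT, 835 KO), gated on *Prrx1*, *Prrx2*, *Twist1*, *Col3a1* and others, had *Krt18* at 12.1 CPM [10.2, 14.3] in WT and 11.5 CPM [9.84, 13.4] in KO, in 15.7% and 14.6% of cells. *Krt8* had 4.87 CPM [3.68, 6.32] and 3.68 CPM [2.76, 4.81], and *Epcam* 3.04 CPM [2.12, 4.23] and 2.85 CPM [2.04, 3.86]. The *Krt18* UMIs were spread over many cells, with 9 WT and 10 KO cells holding 3 or more. For *Krt8* in WT, 12 of 56 UMIs lay in 1 cell, and for *Epcam* in KO 8 of 41. Cells without any ectoderm marker gave 11.8 and 11.4 CPM of *Krt18*, 3.93 and 3.65 CPM of *Krt8* and 3.03 and 2.36 CPM of *Epcam*. *Krt18* in endothelium-like cells had 0 UMIs in WT [0, 1.89 CPM] and 12 UMIs in KO (4.65 CPM [2.40, 8.12]), of which 1 cell held 8. Erythroid-like cells had *Krt18* at 4.38 and 2.63 CPM and *Epcam* at 2.92 and 3.15 CPM. These *Epcam* levels were near those of mesenchyme-like cells, and the source of such low counts was not tested. Cells that met no gate also held some UMIs of the genes. Of the 94 WT cells without a class, 12 had a *Krt8* UMI and 20 a *Krt18* UMI, at 39.0 CPM [28.9, 51.6] and 66.1 CPM [52.6, 81.9], and of the 120 KO cells 9 and 16, at 16.96 CPM [10.9, 25.2] and 32.5 CPM [23.8, 43.4]. Their median depth was 11812 and 10736 UMIs. These cells also held 70 and 21 *Epcam* UMIs and 8 and 7 *Krt7* UMIs, and 4 cells of each library had *Krt7*, *Krt8*, *Krt18* and *Epcam* together. Ectoderm gate markers summed to 31.8 and 7.77 CPM in them, against 1.91 and 1.74 CPM in mesenchyme-like cells. How many of the cells without a class were ectoderm cells was not tested, so their UMIs cannot be placed outside the ectoderm. *Krt7* and *Krt19* had 4 UMIs or fewer in each of the optic vesicle-like, forebrain-like and mesenchyme-like classes of either library.

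The question the design puts to these genes is whether the loss of *Mab21l1*, which the study examines in the lens placode, goes with a change in their level. In the ectoderm-like cells the KO over WT ratio was 0.969 [0.769, 1.22] for *Krt7*, 0.916 [0.754, 1.11] for *Krt8*, 1.03 [0.887, 1.20] for *Krt18* and 1.17 [0.994, 1.38] for *Epcam*. *Krt19*, with 12 against 16 UMIs, had a ratio of 1.90 [0.843, 4.40]. The study names *Epcam* and the claudin gene *Cldn7* among genes higher in *Mab21l1*-null cells of its ectoderm cluster, by its own cut and set of cells. Of the 5 genes 1 (*Krt19*) was past 1.5-fold and higher, against 8.81% of 7207 genes with at least 20 UMIs that were higher and 19.2% past it either way. All 5 intervals spanned 1, and the share of all genes whose interval does so is not given, so this count has no comparison. The median ratio was 1.03 beside 0.997 over the 7207 genes. By counting error alone, the intervals of *Krt7*, *Krt8*, *Krt18* and *Epcam* ran up to 1.38-fold and down to 0.754-fold. Spread between cells and embryos is not in these intervals, so they set no bound on a change between genotypes. The ratios depended on how the cells were classed. When cells were given to the class with the highest scaled marker expression, which took 69 WT and 72 KO cells as ectoderm-like, the ratios were 0.724 for *Krt7*, 0.631 for *Krt8*, 0.736 for *Krt18* and 0.850 for *Epcam*, which puts *Krt8* past 1.5-fold.

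**Figure D5:**
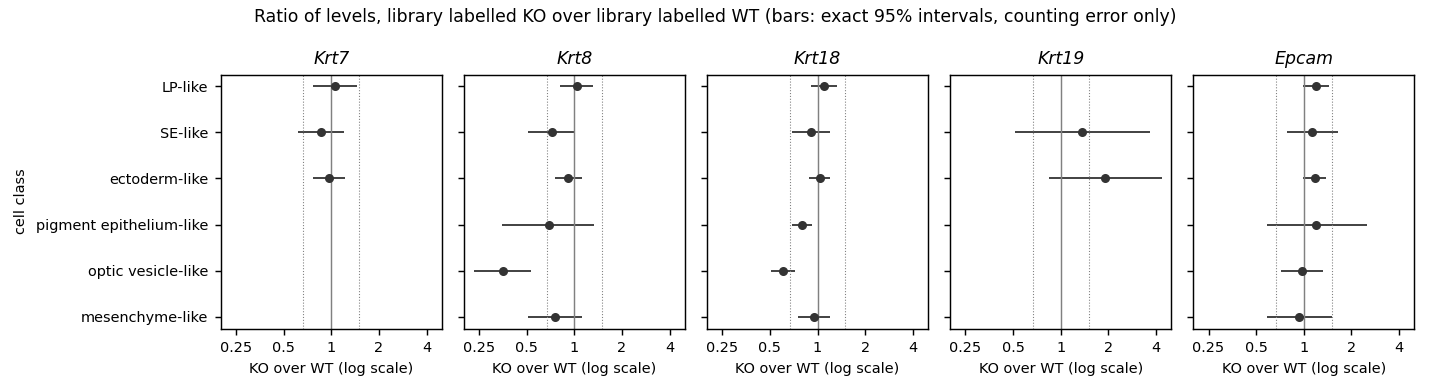
Ratio of the level in the library labelled KO to that in the library labelled WT (log axis) for each gene by class, for genes with at least 20 UMIs in the class, with exact 95% intervals for counting error; the solid line is 1 and the dotted lines mark 1.5-fold. The ratios of *Krt8* and *Krt18* in optic vesicle-like cells, 0.355 and 0.606, lie left of the dotted line, and the interval of *Krt18* in pigment epithelium-like cells ends at 0.926.

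The split by position rests on markers measured in the same cells, of which *Pax6* had 214 CPM [185, 246] in WT and 197 CPM [164, 235] in KO ectoderm-like cells and *Six3* 182 CPM [156, 212] and 159 CPM [130, 194]. In SE-like cells *Six3* had 1 UMI in WT and 9 UMIs in KO. What part a change in these markers has in the split was not tested. The KO over WT ratio in LP-like cells was 1.06 [0.769, 1.45] for *Krt7*, 1.03 [0.812, 1.31] for *Krt8*, 1.10 [0.910, 1.32] for *Krt18* and 1.19 [0.989, 1.43] for *Epcam*. None of these 4 genes was past 1.5-fold, against 22.3% of 6071 genes, and *Krt19* had 2 and 6 UMIs, a ratio of 4.34 [0.776, 44.0]. In SE-like cells the ratios were 0.862 [0.611, 1.21], 0.720 [0.507, 1.01], 0.912 [0.694, 1.19] and 1.13 [0.779, 1.63] in the same order and 1.37 [0.513, 3.68] for *Krt19*, with none of the 5 past 1.5-fold against 22.8% of 3409 genes. This count did not hold when cells were classed by the highest scaled marker expression, which put the SE-like ratios of *Krt7*, *Krt8* and *Krt18* past 1.5-fold at 0.538, 0.469 and 0.572, *Epcam* at 0.720, and the LP-like ratios of *Krt8*, *Krt18* and *Epcam* at 0.694, 0.796 and 0.904. A placode cut of at least 1 marker gave SE-like ratios of 1.11 for *Krt8* and 7.68 for *Krt19*. None of the 5 genes had intervals on opposite sides of 1 in the LP-like and SE-like cells, and the share of all genes is not given. Whether the ratios differ between LP-like and SE-like cells could not be tested with 1 library each.

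Outside the ectoderm, *Krt18* in pigment epithelium-like cells had a KO over WT ratio of 0.797 [0.686, 0.926], under 1.5-fold, beside 12.1% of 9583 genes past 1.5-fold there. None of the 3 genes with at least 20 UMIs passed it, and *Krt8* was at 0.687 [0.348, 1.32] and *Epcam* at 1.20 [0.584, 2.49]. In optic vesicle-like cells 2 of 3 genes were 1.5-fold or more lower in KO, where 3.04% of 12450 genes were lower and 6.41% past it either way: *Krt8* at 0.355 [0.233, 0.535] and *Krt18* at 0.606 [0.510, 0.720]. *Epcam* was at 0.974 [0.722, 1.32]. A gate of at least 4 markers gave 0.689 for *Krt8*, no longer past 1.5-fold, classing by scaled marker expression gave 0.613, and thinning gave 0.210. Without the highest cell of each library the *Krt8* ratio was 0.537 [0.326, 0.880], and without the 5 highest cells 0.624 [0.350, 1.11] for *Krt8* and 0.698 [0.572, 0.851] for *Krt18*, which is then no longer past 1.5-fold. At equal numbers of pigment markers in neural cells, the *Krt18* ratio was 0.880 [0.499, 1.60] with 0 markers, 0.959 with 1, 0.967 with 2, 0.511 [0.389, 0.666] with 3, 1.01 [0.873, 1.18] with 4 and 1.01 [0.824, 1.25] with 5 or more. Neural cells with no pigment marker numbered 151 in WT and 317 in KO, those with 4 numbered 124 and 149, and those with 5 or more 35 and 33. Both the comparison at equal marker numbers and that without the highest cells were added after the data were seen. The part of pigment marker number in the pooled ratio was not tested further. In mesenchyme-like cells none of 3 genes was past 1.5-fold, against 6.67% of 12137 genes, with *Krt8* at 0.756 [0.509, 1.12], *Krt18* at 0.954 [0.757, 1.20] and *Epcam* at 0.936 [0.581, 1.51]. Without the highest cell of each library these ratios were 0.889, 0.982 and 0.796.

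Over all cells, with no classes, the KO over WT ratio was 0.571 [0.461, 0.704] for *Krt7* and 0.533 [0.464, 0.612] for *Krt8*, and 0.704 [0.654, 0.758] for *Krt18* and 0.769 [0.683, 0.865] for *Epcam*. The ectoderm-like cells, which hold most of the *Krt7* UMIs, made up 2.17% of the UMIs in WT and 1.22% in KO.

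Other genes of the same structures were read from lists. Of the 43 other keratin genes, 14 had a UMI in any cell. Only *Krt10*, a keratin of stratified epidermis, had at least 50 UMIs in the ectoderm-like cells, at 31.8 and 36.0 CPM, and its level was close in optic vesicle-like (39.3 and 44.2 CPM) and mesenchyme-like cells (41.8 and 37.3 CPM). *Krt14*, the type I keratin of basal epidermis, picked here after its values were seen, had 7 UMIs in the ectoderm-like cells of each library, of 7 and 9 in all cells. Of the 13 measured desmosome and keratin linker genes, 2 had at least 50 UMIs, and neither was past 1.5-fold, where 4.34% of 4172 genes with that many were higher and 5.25% lower: *Dsp*, the desmosomal plaque protein that holds keratin filaments, had 52.7 and 53.2 CPM (ratio 1.01 [0.630, 1.60]), and *Jup* 36.2 and 45.3 CPM (1.25 [0.733, 2.13]). *Dsp* had 4.11 and 3.73 CPM over all pigment epithelium-like cells, with or without *Krt18*, and 0.888 and 0.476 CPM in optic vesicle-like cells. *Pkp2*, with fewer than 50 UMIs in ectoderm-like cells, was picked here after its values were seen. It had 16.4 and 17.0 CPM in pigment epithelium-like and 20.9 and 29.7 CPM in ectoderm-like cells.

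Of the 18 genes that encode EPCAM partners or its processing, 6 had at least 50 UMIs in ectoderm-like cells, with a median KO over WT ratio of 1.24 beside 1.001 over all 4172 genes with that many. Of these 6, 2 were 1.5-fold or more higher in KO and 0 lower, beside 4.34% and 5.25% of all genes. The claudin *Cldn3* had 17 UMIs in WT and 40 UMIs in KO, 18.7 and 62.5 CPM (ratio 3.35 [1.86, 6.30]). The study, from these same libraries, already reports *Cldn3* as higher in *Mab21l1*-null cells of both its placode and its surface ectoderm sets. *Spint1*, a membrane serine protease inhibitor, had 31.8 and 54.7 CPM (1.72 [1.02, 2.91]). *Cldn7*, the claudin that binds EPCAM directly, had 124 and 153 CPM (1.23 [0.932, 1.63]), and *Cldn4* 51.6 and 64.1 CPM (1.24 [0.797, 1.93]). *Spint2* had 242 and 266 CPM (1.10 [0.895, 1.35]), and *Prss8*, a membrane serine protease, 48.3 and 56.3 CPM (1.17 [0.729, 1.85]). *Cldn7* had 0 and 1 UMI in pigment epithelium-like cells, at most 0.415 CPM.

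Of the other intermediate filament genes, *Vim*, the filament of mesenchymal and neural progenitor cells, had 46.1 and 34.4 CPM in ectoderm-like cells (ratio 0.746 [0.424, 1.28]) against 322 and 263 CPM in pigment epithelium-like and 154 CPM in mesenchyme-like cells of both libraries. The nuclear lamin *Lmnb1* had 219 and 195 CPM in ectoderm-like cells (0.894 [0.709, 1.12]). Of the 19 epithelial regulators, 5 had at least 50 UMIs, of which 1 was 1.5-fold or more lower in KO and none higher, beside 5.25% and 4.34% of all 4172 genes at that level: *Grhl2*, a grainyhead activator of epithelial genes that is also a gate marker, had 45.0 and 28.1 CPM (0.625 [0.338, 1.11]). *Tfap2a* had 98.8 and 71.9 CPM (0.728 [0.499, 1.05]) and *Snai2*, a repressor of epithelial genes, 42.8 and 36.0 CPM (0.840 [0.479, 1.44]), against 1.23 and 3.32 CPM in pigment epithelium-like and 15.9 and 18.8 CPM in mesenchyme-like cells. *Zeb1* and *Zeb2*, other such repressors with fewer than 50 UMIs in ectoderm-like cells, were picked here after their values were seen. *Zeb1* had 1 and 3 UMIs in ectoderm-like cells. Its level was 31.6 and 32.3 CPM in pigment epithelium-like and 40.3 and 44.4 CPM in mesenchyme-like cells. *Zeb2* had 10 UMIs (10.98 CPM) in WT and 0 UMIs in KO ectoderm-like cells, a KO over WT ratio of 0 [0, 0.635]. The *Zeb2* level was 31.2 and 28.6 CPM in pigment epithelium-like and 31.2 and 27.2 CPM in mesenchyme-like cells. The gate markers *Esrp1*, a splicing factor of epithelial cells, and *Trp63*, a regulator of stratified ectoderm, had ratios of 0.966 [0.623, 1.48] and 1.12 [0.736, 1.69].

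The genes whose levels over 8 classes in 2 libraries (16 points) were most like the mean of the 5 genes, by Pearson's r of log2(CPM + 1) among 2275 genes with at least 100 UMIs in ectoderm-like cells, were *Sostdc1* (r = 0.967), *Mapk13* (0.966), *Barx2* (0.949), *Fermt1* (0.948), *Frem2* (0.943) and *Gm16136* (0.940). *Sostdc1*, a secreted BMP and WNT antagonist, had 433 and 463 CPM in ectoderm-like cells, a level like that of *Krt18*. Against the mean that they form, *Epcam*, *Krt8* and *Krt19* had r of 0.976, 0.973 and 0.970, *Krt7* 0.936 and *Krt18* 0.868. The points of a library share its cells and depth, so r is a description. The ranked genes were chosen by their UMIs in ectoderm-like cells, the class where the 5 genes were highest. A gene high in that class and low elsewhere thus has a high r by construction. *Krt19*, with 28 UMIs there, was under the threshold of 100.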

How the data were processed

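Cells from 1 WT and 1 KO embryo were profiled by 10x Chromium 3′ chemistry. The authors mapped reads to mm10 (GRCm38) and ran Cell Ranger, including its aggregation step, which may thin reads of the deeper library. They deposited raw UMI counts (whole numbers) per gene and barcode. Here cells with 1500 to 8000 genes and no more than 5% mitochondrial UMIs were retained (the study writes this limit as a fraction with a percent sign), 1680 of 1745 WT and 2404 of 2458 KO barcodes with 41880035 and 52430844 UMIs.

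The 5 genes, gates and gene lists were chosen with earlier results of these data known. Each of 9 gates had 8 markers (surface ectoderm, optic vesicle, pigment epithelium, forebrain neural ectoderm, mesenchyme, endothelium, erythroid, neural crest, macrophage). A class first had to lead by 2 markers; a lead of 1 was set after the cells and the levels of the 5 genes under both settings were seen, and the values for a lead of 2 are given with the alternatives. No doublet caller was run: ties were left out, and an alternative drops cells over 40000 UMIs. From each list the genes with the largest and smallest KO over WT ratios (up to 4 each) of those with at least 50 UMIs in ectoderm-like cells were named, and the 6 genes most like the 5.

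Since each genotype is 1 library, nothing was tested and no p-value is given. Past 1.5-fold refers to the ratio of CPM, and a fold against 0 UMIs was taken against 3 counts in that class and library. The code for the ratios was checked on Poisson counts simulated from the ectoderm-like comparison. Over 4172 genes, all 200 changed ones had the right direction and 95.4% of true values lay in the interval. The interval assumes such counts, so this coverage checks the code only. Spread between cells or embryos was not simulated. Gene models came from GENCODE and promoters from RefSeq. Alternatives changed the gate, cell filters, scaling, thinning and placode cut. The tools were Python 3.11.15 with scipy 1.17.1, numpy 2.4.6, matplotlib 3.10.9 and pandas 2.3.3.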

Additional observations from a re-analysis of the deposited data

How the results depend on the processing

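No paired analysis was possible because each genotype had 1 library. Over 59 results, 490 alternative values were computed, of which 434 stayed within the interval of the reported value, or for the count of genes within 1.5 times. The others are given here, and where no construction of the alternative shows it, the cause was not tested.

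The largest set came from giving each cell to the class with the highest scaled marker expression, which took more cells as ectoderm-like. KO over WT ratios in ectoderm-like cells were then 0.724 (*Krt7*), 0.631 (*Krt8*), 0.736 (*Krt18*) and 0.850 (*Epcam*). In LP-like cells they were 0.694 (*Krt8*), 0.796 (*Krt18*) and 0.904 (*Epcam*), and in SE-like cells 0.538 (*Krt7*), 0.469 (*Krt8*), 0.572 (*Krt18*) and 0.720 (*Epcam*). In optic vesicle-like cells *Krt8* was at 0.613. The LP-like over SE-like ratio of *Krt7* in WT was 0.324. Ectoderm-like over other classes gave 59.4 for *Krt8* and 58.9 for *Epcam* in KO and 13.4 and 13.0 for *Krt18* in WT and KO. For *Krt18*, pigment over optic vesicle was 5.94 in WT and 7.33 in KO, and ectoderm over pigment 3.01 in KO.

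With a lead of 2 markers, chosen as an alternative after the data were seen, ectoderm-like over other classes was 24.9 and 32.1 for *Krt18* in WT and KO and 123 for *Epcam* in KO. *Krt18* ectoderm over pigment was 2.03 and 2.86, and pigment over optic vesicle 10.7 and 13.7. A gate of at least 4 markers gave 90.5 for *Krt8* ectoderm-like over other classes in WT, and 0.689 for *Krt8* KO over WT in optic vesicle-like cells. Without cells over 40000 UMIs, *Krt18* in WT was at 21.1 (ectoderm-like over other classes) and 9.10 (pigment over optic vesicle). With cells thinned, *Krt18* was at 30.9 (ectoderm-like over other classes, KO), 8.51 and 11.4 (pigment over optic vesicle, WT and KO) and 0.685 (KO over WT, pigment), and *Krt8* at 0.210 (KO over WT, optic vesicle). Without the 1 and the 5 highest cells of each library, also added after the data were seen, the last ratio was 0.537 and 0.624.

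A placode cut of at least 1 marker turned the *Krt19* LP-like over SE-like ratio in WT to 1.08, and gave 0.968 for *Krt8* in WT and 2.40 for *Epcam* in KO, with KO over WT in SE-like cells at 1.11 (*Krt8*) and 7.68 (*Krt19*). A cut of at least 3 gave *Epcam* 1.14 in WT and 1.11 in KO.

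Without thinning, shares of ectoderm-like cells with a UMI in WT and KO were 91.3% and 91.7% (*Krt7*) and 100% and 100% (*Krt8*), with *Krt18* at 100% in WT, and those of *Krt18* in pigment cells 81.6% and 60.6%. Thinned to 6000 UMIs, *Krt19* was at 6.52% and 5.56% and *Epcam* at 84.8% in WT. With at least 50 UMIs required, 400 genes were past 1.5-fold KO over WT in ectoderm-like cells, against 1387 with at least 20.

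Depth limits *Krt19* most, with 12 and 16 UMIs in ectoderm-like cells. With 46 and 36 such cells from 1 embryo each, differences between embryos could not be told apart from differences between genotypes.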
